A study of Mus musculus with 24 samples.

Results

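The regions described here are m6A peaks that lie deep inside very long genes, which are peaks whose midpoint falls in a mouse protein-coding gene body of at least 200000 bp and at least 20000 bp from both ends of that gene. Of the 113764 peaks in 12 peak lists, 5364 (4.72%) met this rule. They fell in 592 of the 990 protein-coding genes of that length. Another 3334 peaks lay in the same 990 genes within 20000 bp of an end, and these near-end peaks are the comparison throughout.

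N6-methyladenosine (m6A) is a methyl mark placed on adenosines of RNA by a nuclear writer complex built around Mettl3 and Mettl14, mostly while the RNA is being made. In messenger RNA of many tissues it gathers around stop codons, in the last exon and in long internal exons, and reader proteins that bind it affect splicing, translation and decay. In oocytes and early embryos, where RNA stored by the growing oocyte is cleared and the embryo starts its own transcription, the mark has been linked to RNA stability and to RNA made from repeats. The body of a very long gene is mostly intron, so a peak deep inside one can come from an internal exon, an intron kept in unprocessed RNA, a repeat, or another gene nested in the long one. The gene table used here has no exons, so these possibilities cannot be told apart from position.

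The peaks come from a low-input form of m6A immunoprecipitation and sequencing (picoMeRIP-seq) of C57BL/6N mouse oocytes and embryos. In stage order the samples were oocytes at the germinal vesicle (GV) stage, metaphase II (MII) oocytes, zygotes, 2-cell embryos, 8-cell embryos and blastocysts, with 2 biological replicates each. Each replicate was a pool from 8-week-old superovulated mice, which held 49 cells at the GV stage, 100 or 110 at MII, 100 or 51 embryos at the 8-cell stage, and 100 at each other stage. GV oocytes were collected 48 h after the first hormone (PMSG), and MII oocytes 14 h, zygotes 27 to 28 h, 2-cell embryos 39 to 43 h, 8-cell embryos 68 to 70 h and blastocysts 92 to 94 h after the second (hCG). All groups were untreated beyond superovulation, and the labels give no genetic change in any of them. For tests, the 2-cell, 8-cell and blastocyst libraries are called the embryonic phase (n = 6) and the GV, MII and zygote libraries the maternal phase (n = 6). The lists held 6914 to 11959 peaks per library. The depth of reads is not given, and inputs were left out, so methylation and abundance of the RNA cannot be told apart.

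The stage labels were set against marker genes, counted as those with a peak. Of 9 oocyte genes, 0 to 2 had a peak in embryonic libraries and 4 or 5 in maternal ones. Of 5 inner cell mass genes, 4 had one in 8-cell and 5 in blastocyst libraries, against 0 or 1 in all earlier ones, and of 6 trophectoderm genes, 3 had one in each 8-cell and blastocyst library, 0 in 2-cell libraries and 1, Gata3, in every maternal library. Of 7 genes typical of 2-cell embryos, 5 had one in both 2-cell libraries, 4 and 5 in the 8-cell, 3 and 2 in the blastocyst, and 0 or 1 in maternal libraries. Of 12 genes of cumulus and granulosa cells, which surround the oocyte and were removed, 0 had a peak in embryonic libraries, 3 in each GV library, 2 and 3 in MII and 1 and 0 in zygote libraries. Those were Has2, Inhba, Cyp11a1 and Cyp19a1, while Fshr, Foxl2, Amh, Star, Lhcgr, Inha, Ptx3 and Tnfaip6 had none in any library. These genes move with the phase like the deep peaks below, and their part in those results was not tested.

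Sequence under deep peaks could be read only where a RefSeq window around an annotated transcript start lay in a deep zone. A window spans 250 bases before a start and 50 after it. Of 1190 windows whose start lay in a deep zone, 24 were under a deep peak, and 14 of them were alternative starts of the host gene itself. Altogether 62 deep peaks (1.16%) touched such a window. Of these 14, a deep peak overlapped the window in 3 or more libraries for 7, of which 3 are printed below, from RefSeq on GRCm38.p6 (the assembly of mm10), as examples of a deep peak at an internal start of its own host gene. They were chosen after their values were seen. Capitals mark bases under the deep peaks and each is written on the strand of the gene.
Tnrc6b, chr15:80798360-80798659, plus strand: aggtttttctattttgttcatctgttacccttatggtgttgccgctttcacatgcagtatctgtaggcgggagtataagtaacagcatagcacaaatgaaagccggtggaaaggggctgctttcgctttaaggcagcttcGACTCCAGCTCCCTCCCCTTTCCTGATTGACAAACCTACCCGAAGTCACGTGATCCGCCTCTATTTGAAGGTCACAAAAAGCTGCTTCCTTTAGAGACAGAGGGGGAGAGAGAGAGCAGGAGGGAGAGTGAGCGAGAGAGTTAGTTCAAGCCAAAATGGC
Ptprr, chr10:116177101-116177400, plus strand: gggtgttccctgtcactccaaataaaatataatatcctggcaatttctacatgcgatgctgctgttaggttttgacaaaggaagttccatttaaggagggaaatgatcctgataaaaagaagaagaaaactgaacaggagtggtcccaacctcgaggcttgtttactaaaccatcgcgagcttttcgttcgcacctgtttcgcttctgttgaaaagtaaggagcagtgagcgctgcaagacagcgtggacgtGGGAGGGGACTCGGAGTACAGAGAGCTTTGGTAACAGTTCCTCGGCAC
Mbd5, chr2:49245650-49245949, plus strand: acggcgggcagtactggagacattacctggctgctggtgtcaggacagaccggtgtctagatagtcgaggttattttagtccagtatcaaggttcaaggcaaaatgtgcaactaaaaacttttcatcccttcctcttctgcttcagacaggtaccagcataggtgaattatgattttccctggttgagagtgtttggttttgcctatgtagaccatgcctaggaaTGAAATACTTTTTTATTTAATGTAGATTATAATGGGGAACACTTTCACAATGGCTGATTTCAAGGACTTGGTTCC

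Tnrc6b encodes a GW182 protein that works with Argonaute in microRNA silencing. The peak on its internal start was found in 1 embryonic and 6 maternal libraries at 12.2-fold to 32.4-fold enrichment over input, and 160 of the 300 window bases lay under it. In Ptprr, a receptor-type tyrosine phosphatase, 0 embryonic and 3 maternal libraries had a peak reaching into the window, at 3.78-fold to 4.72-fold, and that peak begins just after the start. In Mbd5, a methyl-CpG-binding-domain protein, 1 embryonic and 2 maternal libraries did, at 3.40-fold to 4.60-fold. GGAC, the core of the common m6A consensus, occurs 0 times in the Tnrc6b window and 2 times each in those of Ptprr and Mbd5. Its reverse complement GTCC occurs 0 times in the Tnrc6b window and 1 time in each of the other windows shown. Among the 24 windows under deep peaks, 12 hold GGAC and 19 hold GTCC, and among all 32851 windows of this length 65.6% hold GGAC and 66.1% hold GTCC.

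Per base, the deep parts of long genes carried far fewer peaks than their ends. The deep zone covered 380.714 Mb, which is 90.7% of the bases of these genes, and held 61.7% of their peaks. In stage order and for replicates 1 and 2, deep density was 1.61 and 1.76 peaks per Mb in GV oocytes, 1.69 and 1.49 in MII oocytes, 1.15 and 1.65 in zygotes, 1.23 and 1.05 in 2-cell embryos, 0.641 and 0.538 in 8-cell embryos, and 0.520 and 0.762 in blastocysts. Near-end density in the same order was 12.4 and 14.0 peaks per Mb in GV oocytes, 10.4 and 8.33 in MII oocytes, 6.06 and 9.23 in zygotes, 3.48 and 3.58 in 2-cell embryos, 3.94 and 4.30 in 8-cell embryos, and 5.04 and 4.55 in blastocysts. The deep value was lower in all 12 libraries and the ranges did not overlap. The mean log2 ratio of deep over near-end density was −2.55, a 5.88-fold lower density deep inside (exact sign-flip permutation test over 6 stage means, two-sided, p = 0.0312, the smallest that 6 stages allow). The gap was narrowest in 2-cell embryos, with log2 ratios of −1.50 and −1.77, and widest in blastocyst replicate 1, with −3.28.

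**Figure D1:**
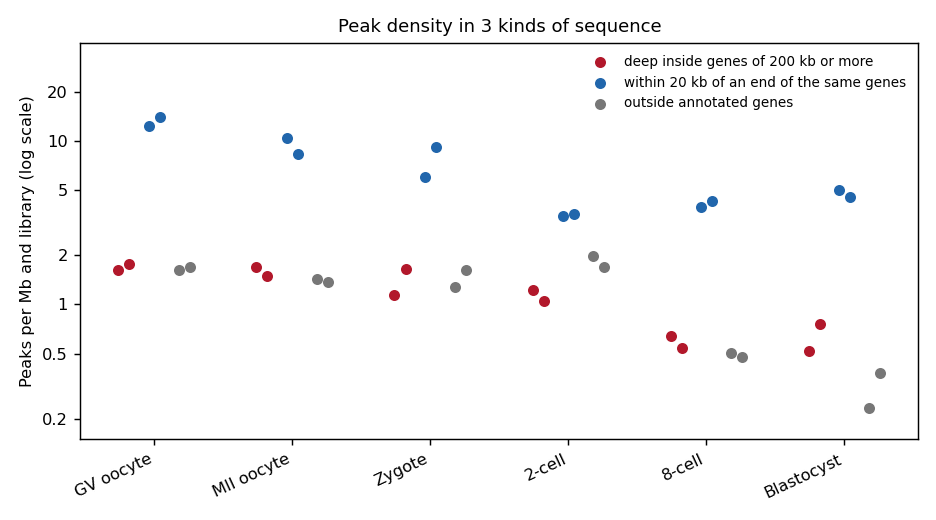
Peaks per Mb and library (log axis) at each stage, 1 point per library, deep inside genes of at least 200000 bp (red), within 20000 bp of an end of the same genes (blue) and outside annotated genes (grey). Deep points run from 0.520 to 1.76 and near-end points from 3.48 to 14.0, and the deep points lie close to the grey ones until the 2-cell stage, where they are lower, and above them in blastocysts.

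The number of deep peaks was lower in embryos than in oocytes and zygotes. Libraries held 614 and 670 deep peaks in GV oocytes, 644 and 566 in MII oocytes, 437 and 630 in zygotes, 467 and 399 in 2-cell embryos, 244 and 205 in 8-cell embryos, and 198 and 290 in blastocysts. Zygote replicate 1, the shortest list, lay among the 2-cell libraries, so the phases overlapped at that point. The mean was 300.5 ± 109.9 in the embryonic phase and 593.5 ± 84.1 in the maternal phase (SD, n = 6 each). This difference of −293 had an exact two-sided permutation p of 0.00433 (adjusted 0.00577 over 4 tests between stages). In such pools, fewer cells of a type and less RNA per cell cannot be told apart. Near-end peaks were also fewer, with 162 ± 23.4 in embryonic and 393.5 ± 111 in maternal libraries (SD, n = 6 each). Their difference of −231 had an exact permutation p of 0.00216 (adjusted 0.00289 over 4 accompanying tests). Per long gene and library there were 0.200 to 0.677 deep peaks and 0.137 to 0.552 near-end peaks.

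As a share of each list, deep peaks were most frequent in oocytes and zygotes, lower in 2-cell embryos and lowest afterwards. The share was 5.61% and 5.60% in GV oocytes, 5.97% and 6.31% in MII oocytes, 6.32% and 6.22% in zygotes, 5.10% and 4.18% in 2-cell embryos, 2.77% and 2.17% in 8-cell embryos, and 2.17% and 3.65% in blastocysts. Every embryonic library lay below every maternal one. The means were 3.34 ± 1.18% and 6.01 ± 0.335% (embryonic and maternal phase, SD, n = 6 each), a difference of −2.67 percentage points (exact two-sided permutation test, p = 0.00216, adjusted p = 0.00577). Split after the 2-cell stage instead, the share was 2.69 ± 0.701% in the 4 libraries of 8-cell embryos and blastocysts and 5.66 ± 0.736% in the 8 earlier ones, a difference of −2.97 points (exact permutation p = 0.00404, adjusted p = 0.00577). That split was chosen knowing an earlier result of these lists on peaks outside genes. With whole stages as units the smallest possible p is 0.1, and the differences between phases reached it.

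**Figure D2:**
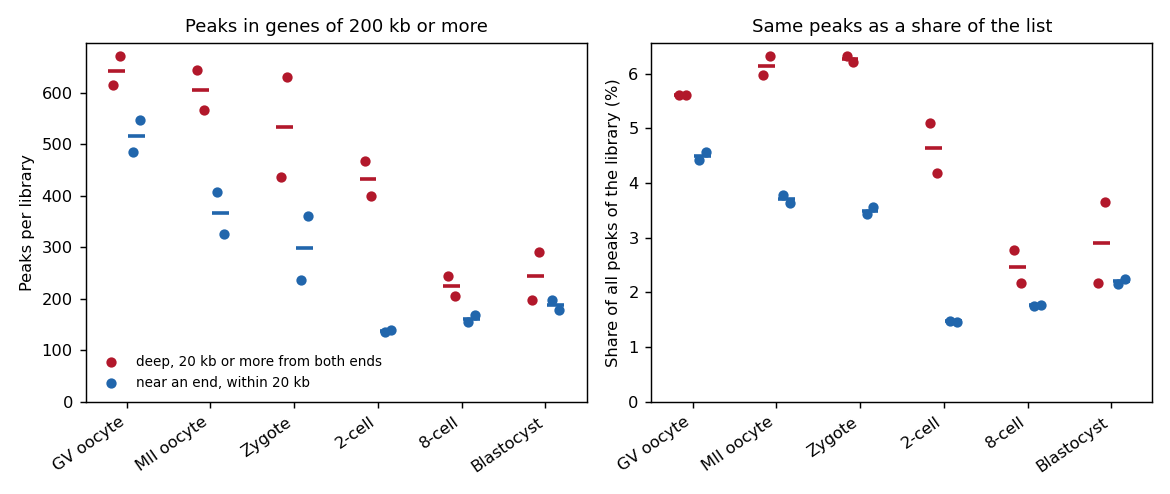
Left, number of deep (red) and near-end (blue) peaks per library at each stage; right, the same as a percentage of all peaks of the library; points are libraries and bars the mean of 2 replicates. Deep peaks made up 2.17% to 5.10% of embryonic and 5.60% to 6.32% of maternal lists, and near-end peaks 1.47% to 2.24% of embryonic and 3.43% to 4.57% of maternal lists.

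Peaks near the ends of the same genes were fewer in embryos too. The log2 ratio of deep over near-end density averaged −2.46 ± 0.69 in the embryonic and −2.65 ± 0.25 in the maternal phase (SD, n = 6 each). The difference of 0.20 in log2 (exact two-sided permutation test, p = 0.526, adjusted p = 0.526) was smaller than the spread among embryonic libraries. Near-end peaks as a share of the list were 1.81 ± 0.327% in the embryonic and 3.90 ± 0.476% in the maternal phase (SD, n = 6 each; exact permutation p = 0.00216, adjusted p = 0.00289). When the share was taken over peaks in protein-coding genes only, a measure added after the data were seen, deep peaks were 2.35% to 8.39% of embryonic and 7.74% to 9.61% of maternal peaks. The difference was then −4.05 points (exact permutation p = 0.00866), with 2-cell replicate 1 inside the maternal range.

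Set against sequence outside all annotated genes, a comparison also added after seeing the data, deep density was close to it in oocytes and zygotes. It was 0.989-fold and 1.04-fold the intergenic density in GV oocytes, 1.18-fold and 1.08-fold in MII oocytes, and 0.896-fold and 1.02-fold in zygotes. In 2-cell embryos it was 0.624-fold and 0.622-fold, in 8-cell embryos 1.26-fold and 1.14-fold, and in blastocysts 2.26-fold and 2.00-fold. The 2-cell libraries thus lay lowest and the blastocyst libraries highest. Over the 6 stage means the log2 ratio averaged 0.13 (exact sign-flip permutation test, p = 0.594), and between phases it differed by 0.18 (exact permutation p = 0.606). Intergenic density itself was 0.231 to 1.97 peaks per Mb in embryonic and 1.28 to 1.69 in maternal libraries.

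Pooled over the genes, peaks thinned out with distance from the nearest end. A longer gene adds more bases beyond 100000 bp, so position and gene length were not separated at that distance. Over all libraries there were 18.5 peaks per Mb and library within 2000 bp of an end, 2.65 between 10000 and 20000 bp, 1.75 between 20000 and 50000 bp, 1.43 between 50000 and 100000 bp, and 0.906 beyond 100000 bp. No step lay at the limit of the rule: just inside it, at 20000 to 25000 bp, 210 peaks gave 1.77 per Mb and library, and just outside it, at 15000 to 20000 bp, 215 peaks gave 1.81. For the length limit, only peaks and bases at least 20000 bp from both ends were counted. Genes just inside it (200000 to 220000 bp, 112 genes) held 398 such peaks, 1.74 per Mb and library. Those just outside it (180000 to 200000 bp, 144 genes) held 534, or 2.06.

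The side of the gene mattered near the ends and still did for some distance inside. A strand could be assigned to 744 of the 990 genes. Among their peaks nearer to the 3′ end, density was 31.3 per Mb and library within 2000 bp, 2.00 at 20000 to 50000 bp, 1.96 at 50000 to 100000 bp and 0.932 beyond that. Among those nearer to the 5′ end it was 4.87, 1.19, 1.01 and 0.911 at the same distances. Deep peaks thus kept a lean towards the 3′ side as far as 100000 bp, and none was visible beyond. In all, 2382 deep peaks were nearer to the 3′ end and 1721 to the 5′ end, a ratio of 1.38, and the 3′ side held more in 12 of 12 libraries (from 184 against 154 in 2-cell replicate 1 to 99 against 52 in blastocyst replicate 1). These densities were not tested.

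**Figure D3:**
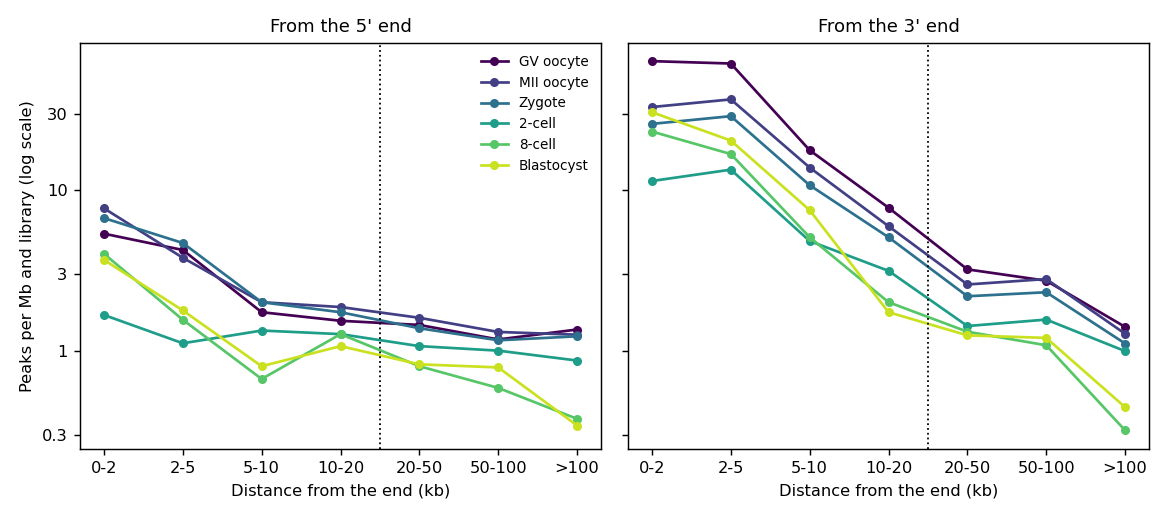
Peaks per Mb and library (log axis) by distance from the nearest end, for peaks nearer to the 5′ end (left) and to the 3′ end (right) of the 744 genes with a strand, 1 line per stage. The dotted line marks the 20000 bp limit; at the 3′ side the lines fall across it without a step, and beyond 100000 bp 8-cell embryos and blastocysts reach 0.322 and 0.449 at the 3′ side, below the other stages.

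No difference in width or enrichment between deep and near-end peaks passed the test. The median width of deep peaks per library was 200.5 to 308 bp, against 208.5 to 358.5 bp near the ends (mean difference −12.6 bp over 6 stages, exact sign-flip permutation test, adjusted p = 0.281 over 3 measures). The authors' fold enrichment had library medians of 4.79 to 7.28 deep inside and 4.45 to 6.79 near the ends, with a mean difference of 0.679 (exact permutation p = 0.0625, adjusted p = 0.188). It was higher for deep peaks in 5 of 6 stages, all but blastocysts. The −log10 q-value differed by 1.04 (exact permutation, adjusted p = 0.281), with library medians of 8.24 to 29.5 deep inside and 8.60 to 30.0 near the ends. Peaks at least 1000 bp wide were 4.10% of deep and 2.40% of near-end peaks, and 17.9% and 20.1% had several summits.

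Most deep peaks were found again in the other replicate, except in blastocysts. A peak counts as recovered when a peak of the other replicate overlaps it by at least 1 bp. Recovery was 83.3% deep inside and 85.7% near the ends in GV oocytes, 76.8% and 77.3% in MII oocytes, 74.1% and 71.1% in zygotes, 62.8% and 50.4% in 2-cell embryos, 61.1% and 62.9% in 8-cell embryos, and 44.2% and 54.1% in blastocysts. Both kinds were recovered least in embryos. The mean difference was 0.150 percentage points (exact sign-flip permutation test over 6 stages, p = 0.906), positive in 2 of 6 stages, with 2-cell embryos 12.4 points above and blastocysts 9.85 below.

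**Figure D4:**
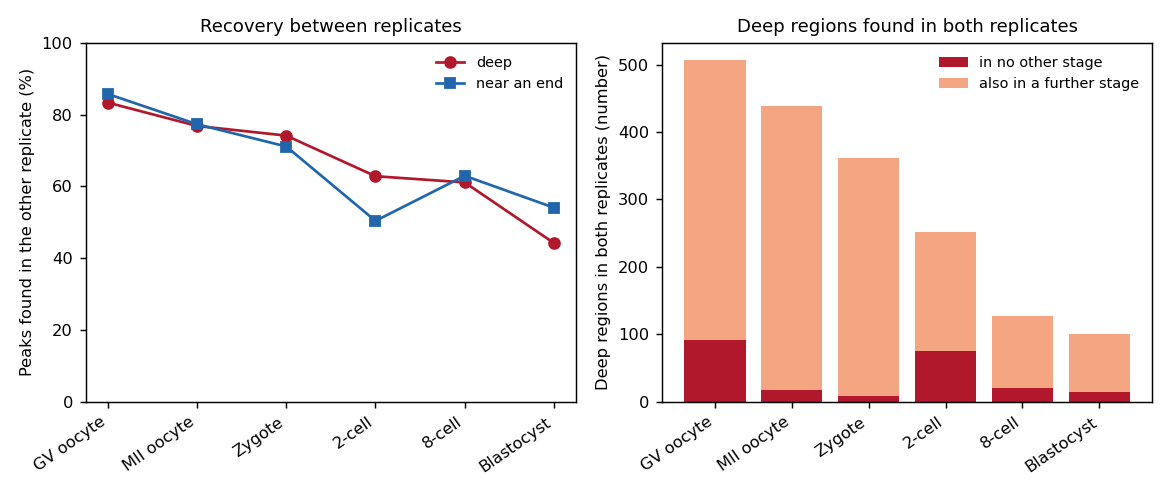
Left, percentage of deep (red) and near-end (blue) peaks that overlap a peak of the other replicate, by stage; right, number of deep regions found in both replicates of a stage, with those found in no other stage in dark red. Deep recovery was 83.3% in GV oocytes and 44.2% in blastocysts, and 75 of the 252 deep regions of 2-cell embryos were in no other stage.

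Merging overlapping peaks of all libraries gave 1697 deep regions. Of these, 694 (40.9%) came from 1 library, 1003 from 2 or more and 12 (0.707%) from all 12. Single-library regions were 33.8% of near-end regions and 36.8% of all 31379 regions of the genome, and 704 of all regions (2.24%) were in every library. By phase, 319 deep regions were found in both, 644 (37.9%) in embryonic libraries only and 734 (43.3%) in maternal libraries only. Over all regions 45.5% were embryonic only and 28.5% maternal only, and near the ends 28.2% and 49.3% were. These shares were not tested. Of the regions found in both replicates of a stage, GV oocytes had 507, MII oocytes 438, zygotes 361, 2-cell embryos 252, 8-cell embryos 127 and blastocysts 100. Those found in no other stage were 91 for GV oocytes, 18 for MII oocytes and 9 for zygotes, then 75 in 2-cell embryos, 20 in 8-cell embryos and 15 in blastocysts. MII oocytes and zygotes thus had few deep regions of their own, while 29.8% of those of 2-cell embryos were in no other stage and 62.7% were also in a maternal stage. Near the ends, 10 of 65 regions of 2-cell embryos (15.4%) were in no other stage and 78.5% were also in a maternal one, and 6 of 260 regions of MII oocytes and 3 of 186 of zygotes were in no other stage. The difference between deep and near-end regions was not tested.

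Single regions were tested for presence in more libraries of one phase (Fisher's exact test on 6 against 6 libraries, Benjamini-Hochberg at 0.05 over 4791 regions of the whole genome found in 5 to 7 libraries). This test treats the 2 replicates of a stage as independent. With whole stages as units, 3 against 3, the smallest possible exact p is 0.1, so no region could be called. The limit holds for every region called here and below. Of all tested regions, 14.7% were called embryonic and 43.0% maternal. Of the 232 deep regions tested, 15 (6.47%) were called embryonic and 165 (71.1%) maternal, a difference from the background that was not tested. Of the 185 near-end regions tested, 5 (2.70%) and 129 (69.7%) were called. Maternal calls thus prevailed among near-end regions as well, and the difference between the 2 kinds was not tested. Among deep regions, 5 were in all 6 embryonic and no maternal library, and 68 the other way round (Fisher's exact test, adjusted p = 0.0086, the smallest reached), against 304 and 905 of all 4791 tested regions. The called counts changed with the libraries and peaks used. Without 2-cell replicate 1 there were 31 embryonic and 273 maternal calls, and without replicate 2 there were 30 and 266. Without blastocyst replicate 1 there were 25 embryonic calls. With equal numbers of peaks per library, 101 were called maternal, and with a score of at least 100, 5 were called embryonic. These runs also change which regions can be tested. Their numbers tested and shares over all regions are not given, so these counts are no result about deep regions.

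Deep peaks lay in a further gene more often than near-end peaks did, as counted here. For a deep peak, a further gene can be another long gene in which the peak is not deep. For a near-end peak, no long gene counts as a further one. The share of deep and near-end bases that lie in a further gene was not measured, so the difference has no background. Over the libraries, 10.4% to 23.7% of deep peaks had their midpoint in a further gene of the table, against 2.11% to 10.3% of near-end peaks, a mean difference of 8.92 percentage points (exact sign-flip permutation test over 6 stages, p = 0.0312, the smallest possible). The deep share was 21.7% and 21.0% in 8-cell embryos and 23.7% and 17.2% in blastocysts, and 10.4% to 14.7% in all earlier libraries. Between phases it was 17.6 ± 5.62% and 12.2 ± 1.86% (embryonic and maternal, SD, n = 6 each; exact permutation p = 0.0649, adjusted 0.0649). Of all deep peaks, 726 (13.5%) were in a further gene, 318 in a long noncoding RNA gene, 233 in a protein-coding gene, 230 in a pseudogene, 23 in a transcribed pseudogene and 2 in a microRNA gene, some in several. Without these peaks the fall of the deep share between phases was −2.47 points (exact permutation p = 0.00216).

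Genes with a deep peak also tended to have a peak near an end. In embryonic libraries 15.3% to 43.4% of long genes with a deep peak had a near-end peak, and 6.27% to 9.10% of those without. In maternal libraries the values were 23.3% to 41.7% and 14.1% to 28.4%. Over 6 stages the mean difference was 16.8 percentage points, positive in all (exact sign-flip permutation test, p = 0.0312, the smallest possible). Still, most genes with a deep peak in a library had no near-end peak in it.

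Deep peaks were spread over many genes. In a library 109 to 344 genes had one, with 168 ± 57.9 in the embryonic and 314 ± 30.4 in the maternal phase (SD, n = 6 each; exact permutation p = 0.00216, adjusted 0.00289). Over all libraries, 288 genes had deep peaks in both phases, 135 in the embryonic and 169 in the maternal phase only, and 398 had none. The 10 genes with the most held 10.6% of the deep peaks, 113 genes had a single one, and 23 genes had one in every library. Genes with a deep peak had a median length of 341863 bp and those without 301090.5 bp. By chromosome, density was highest on chromosome 4, with 2.00 peaks per Mb and library, and lowest on the X chromosome, with 0.666. Without Zfp993 and Zfp978, described next, which hold 197 of its deep peaks, chromosome 4 had 1.28, below chromosomes 5 (1.49) and 10 (1.44).

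The gene with the most deep peaks was Zfp993, a zinc-finger gene on chromosome 4 (146512849 to 146991471), with 119 in 21 regions. Its libraries held 8 and 8 peaks in GV oocytes, 5 and 10 in MII oocytes, 4 and 9 in zygotes, 15 and 15 in 2-cell embryos, 12 and 11 in 8-cell embryos, and 11 and 11 in blastocysts. All embryonic libraries lay above all maternal ones. Zfp978, a neighbour in the same zinc-finger cluster, had 78 deep peaks in 22 regions, with 8 to 12 per embryonic and 2 to 5 per maternal library. The table places several other zinc-finger genes inside both bodies: 69 of the Zfp993 peaks and 36 of the Zfp978 peaks lay in a further gene. Such genes have near-identical copies between which reads can be divided, so the assignment is uncertain.

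Among chromatin and transcription regulators, Kmt2c, a histone H3 lysine 4 methyltransferase, had deep peaks in every library. It held 4 and 5 in GV oocytes, 5 and 4 in MII oocytes, 4 and 5 in zygotes, 4 and 4 in 2-cell embryos, 7 and 5 in 8-cell embryos, and 6 and 7 in blastocysts. Numbers varied little and the phases overlapped. The gene spans chr5:25271795-25498855 (minus strand), and 3 of its deep regions were found in all 12 libraries, at 25373015 to 25373572 (1.69-fold to 13.3-fold), at 25310224 to 25310967 (1.79-fold to 10.4-fold) and at 25298999 to 25299470 (1.61-fold to 6.35-fold). Ncoa2, a coactivator of nuclear receptors, had 1 such region at chr1:13174115-13175302, 3.39-fold to 16.1-fold enriched. In the other direction, Zfp407 on chromosome 18 had 7 and 7 deep peaks in 2-cell embryos, 7 and 6 in 8-cell embryos and 5 and 4 in blastocysts, against 1 and 2 in GV oocytes and 0 in the 4 MII and zygote libraries. Of its 8 deep regions 4 were called embryonic, 1 of them found in 6 embryonic and 0 maternal libraries (Fisher's exact test, adjusted p = 0.0086). These 4 lay close together, between chr18:84558432 and 84563142, so they are not separate results. How many of the 8 could be tested is not given, and of all tested regions 14.7% were called embryonic. Over the list of transcription and chromatin regulators, 35 of 59 long members (59.3%) had a deep peak, against 59.8% of all 990 long genes.

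Of 19 long genes of RNA-binding proteins, 16 (84.2%) had a deep peak, 8 in the embryonic and 14 in the maternal phase. Of all 990 long genes 59.8% had one, 423 genes in the embryonic and 457 in the maternal phase. The median length was 378925 bp in this list and 325237.5 bp over all long genes. Tnrc6b had 41 deep peaks in 7 regions: 4 and 5 in GV oocytes, 4 and 5 in MII oocytes, 5 and 4 in zygotes, 4 and 6 in 2-cell embryos, 0 and 0 in 8-cell embryos, and 2 and 2 in blastocysts. The 8-cell and blastocyst libraries lay below all others. The most enriched Tnrc6b region, chr15:80798500-80798801, is the one over the internal start shown above, and was called maternal (Fisher's exact test, adjusted p = 0.0262). Snd1, a nuclease with a Tudor domain found in RNA-processing complexes, had 26 deep peaks, with 4 and 1 in 2-cell embryos, 0 in the 4 later libraries and 2 to 5 per maternal library, and 13 of them lay in a further gene.

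Of 56 long cytoskeletal and junction genes, 45 (80.4%) were deep-marked, that is with a deep peak in any library, 33 in the embryonic and 41 in the maternal phase. Of all 990 long genes 59.8% were, 423 genes in the embryonic and 457 in the maternal phase. The median length was 402254 bp in this list and 325237.5 bp over all long genes. Macf1, which links actin filaments and microtubules, held more deep peaks late. It had 1 and 2 in GV oocytes, 1 and 1 in MII oocytes, 0 and 2 in zygotes, 1 and 3 in 2-cell embryos, 5 and 6 in 8-cell embryos, and 9 and 9 in blastocysts. The blastocyst libraries were highest and the 8-cell ones next, and 12 of its 40 deep peaks lay in a further gene. One region, chr4:123432057-123432927, was called embryonic and another, chr4:123408020-123408463, maternal (5 libraries against 0 each, Fisher's exact test, adjusted p = 0.0262). Its relative Dst, also a spectraplakin, had 26 deep peaks in 14 regions and 1 near-end peak, with 1 to 5 per embryonic and 0 to 4 per maternal library. Kif16b, a kinesin that moves endosomes, had 5 and 6 deep peaks in blastocysts and 0 to 3 in every other library. Ssh2, a phosphatase that activates the actin-severing protein cofilin, and Mical3, an oxidoreductase that acts on actin, had a deep peak in all 12 libraries. The Ssh2 region chr11:77293834-77294848, found in all 12 and 37.0-fold enriched at its highest, overlies the pseudogene Gm12346, and 27 of the 32 deep peaks of Mical3 lay in a further gene.

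Of 60 long synaptic genes, 37 (61.7%) were deep-marked, against 59.8% of all long genes. Pclo, which encodes the presynaptic scaffold piccolo, held 13 and 14 deep peaks in GV oocytes, 6 and 7 in MII oocytes, 3 and 9 in zygotes, 4 and 3 in 2-cell embryos, and 0 in the 8-cell and blastocyst libraries. GV oocytes were highest, and only 2 Pclo peaks in all lay near an end. Erc2, another presynaptic active-zone protein, had 48 deep peaks, 1 to 3 per embryonic and 5 to 7 per maternal library, so that the phases did not overlap. Its regions chr14:27842415-27842923 (6.90-fold to 14.3-fold) and chr14:27968681-27969580 (8.72-fold to 17.3-fold) were each found in 2 embryonic and 6 maternal libraries. Cntnap2, a neurexin-family protein of axons and, at 2241333 bp, among the longest mouse genes, had 3 or 4 deep peaks in every maternal library, 2 and 2 in 2-cell embryos, 1 and 1 in 8-cell embryos, 0 in blastocysts, and no near-end peak in any library. Its region chr6:46881034-46881955 was 11.8-fold to 28.0-fold enriched. Pcdh15, a protocadherin of hair-cell tip links, had 26 deep peaks, 0 to 2 per embryonic and 3 or 4 per maternal library.

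Of 50 long ion channel and neurotransmitter receptor genes, 27 (54.0%) were deep-marked, against 59.8% of all long genes. Ryr2, a calcium release channel, had 15 deep peaks in 11 libraries and none near an end, and the glutamate receptor subunit gene Grin2a had 14 in 9 libraries and none near an end. Of kinases, phosphatases and phosphodiesterases, 32 of 51 (62.7%) were deep-marked, against the same 59.8%. Prkg1, the cGMP-dependent protein kinase, had 28 deep peaks over all 12 libraries, of which 18 lay in a further gene, and Ptprg, a receptor-type tyrosine phosphatase, 15 in 11 libraries. Of GTPase regulators, 27 of 43 (62.8%) were deep-marked, again against 59.8%. Sipa1l1, a Rap GTPase-activating protein, had 29 deep peaks and Tiam1, a Rac exchange factor, 33, each in 11 libraries.

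Genes at common fragile sites, which are very long and prone to breaks under replication stress, were deep-marked in 21 of 27 cases (77.8%). Of all long genes 59.8% were. The median length was 1223012 bp in this list and 325237.5 bp over all long genes. Of these 27 genes, 15 also belong to another list. Wwox, an oxidoreductase gene at such a site, had a deep peak in all 12 libraries and Ctnna3, an alpha-catenin gene, in 10, and neither had a near-end peak anywhere. Of the deep peaks of Wwox 9 of 30 lay in a further gene, and of those of Ctnna3 15 of 25. Of all long genes, 164 had deep peaks in more embryonic than maternal libraries and 371 in more maternal ones; in the fragile-site list these were 5 and 15. No list was tested, and no property is claimed for one.

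**Figure D5:**
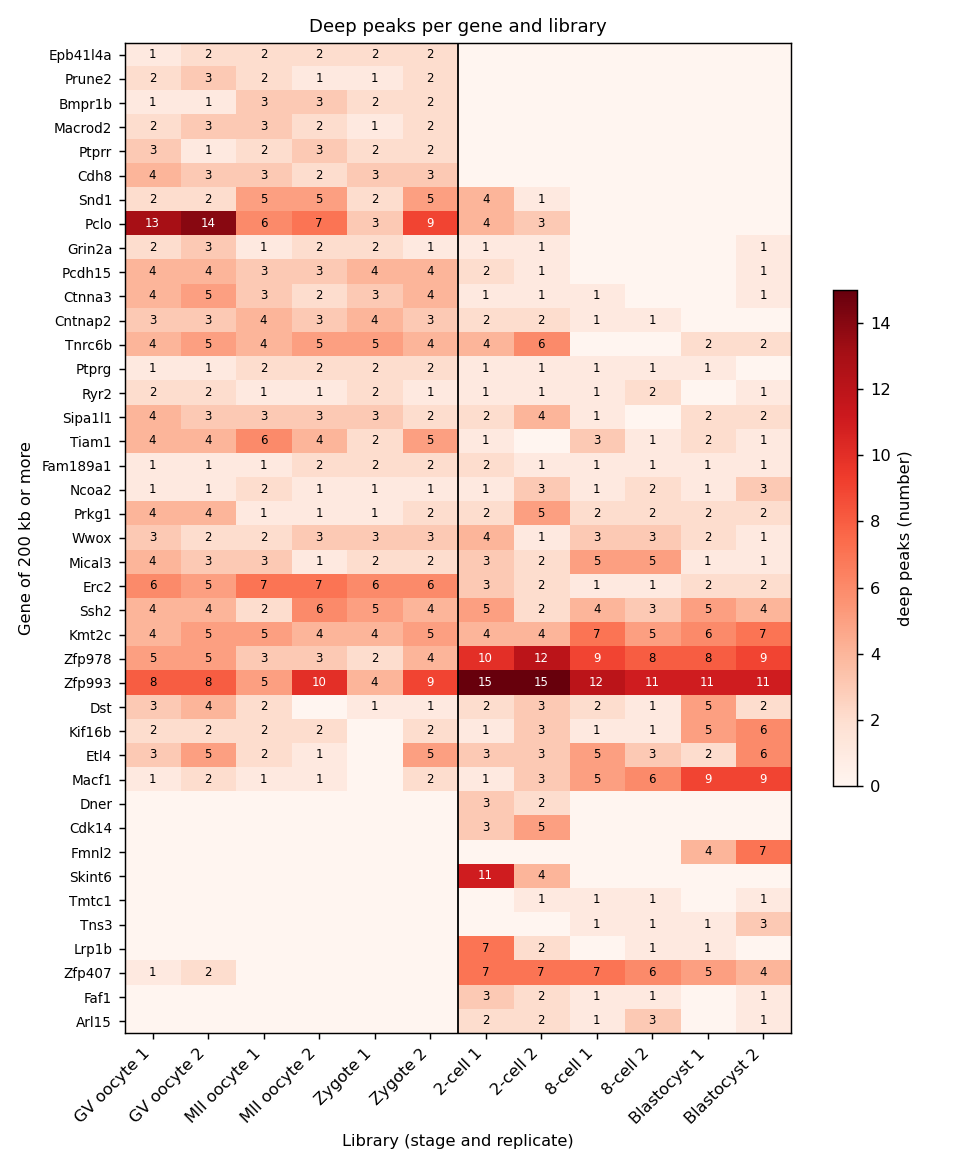
Deep peaks per library (columns, in stage order; the vertical line separates zygote from 2-cell) for each gene named by the rule (rows, ordered by the difference in deep-marked libraries between phases); colour and digits give the number of peaks and blank cells are 0. Pclo has 13 and 14 in GV oocytes and 0 from the 8-cell stage on, Macf1 has 9 and 9 in blastocysts, and Skint6 has 11 and 4 in 2-cell embryos only.

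At the maternal extreme, 33 genes had a deep peak in all 6 maternal and 0 embryonic libraries, and 0 genes showed the reverse. Of all 9856 protein-coding genes with a peak anywhere in the body, 272 (2.76%) had one in all 6 maternal and 0 embryonic libraries and 244 (2.48%) the reverse. That measure takes whole bodies of genes of any length, so it is unlike the count by deep peaks. Genes were not counted this way by near-end peaks. Among near-end regions, 59 were in all 6 maternal and 0 embryonic libraries and 1 was the reverse. Of the 33 genes, the 6 with the best-ranking peaks were Ptprr, Macrod2 (an ADP-ribose hydrolase), Cdh8 (a cadherin), Epb41l4a (a band 4.1 family protein), Bmpr1b (a type I receptor for bone morphogenetic proteins) and Prune2. They held 1 to 4 deep peaks in each maternal library. In 5 of the 6, all but Bmpr1b, at least 1 region was found in all 6 maternal libraries. Regions of Ptprr (chr10:116124984-116125643, 5.76-fold to 11.0-fold), Macrod2 (chr2:140419824-140420280, 2.16-fold to 5.24-fold), Cdh8 (chr8:99146779-99147547, 1.88-fold to 4.92-fold) and Prune2 (chr19:17037423-17037817, 6.52-fold to 12.0-fold) were each called maternal (Fisher's exact test, adjusted p = 0.0086). In Bmpr1b the 12 deep peaks were scattered over 4 regions, none in more than 4 libraries. Cdh8 had 2 regions in all 6 maternal libraries, the other at chr8:99145382-99146118, and 14 of its 18 deep peaks lay in a further gene, the pseudogene Gm15681 for both of these regions.

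At the embryonic extreme the marks were sparser. Faf1, a ubiquitin-binding protein, and Arl15, an ARF-like GTPase, had deep peaks in 5 embryonic and 0 maternal libraries. Tns3 (a focal adhesion protein), Tmtc1 and Lrp1b (an endocytic receptor of the LDL receptor family) had them in 4 and 0. Near-end peaks lay in 9 libraries for Arl15, 8 for Tns3 and 9 for Tmtc1, maternal ones among them, and in 0 for Faf1 and Lrp1b. With a score of at least 100, the difference in libraries was 3 for Faf1, 2 for Arl15, 4 for Tns3, 3 for Tmtc1 and 2 for Lrp1b. Lrp1b had 7 and 2 deep peaks in 2-cell embryos, 0 and 1 in 8-cell embryos and 1 and 0 in blastocysts. Its region in the most libraries, chr2:41067359-41068136, lay 472622 bp from the nearest gene end and reached 28.8-fold. All 4 Tmtc1 peaks lay in a further gene. Besides Zfp407 and regions of the Zfp978 cluster, the regions found in all 6 embryonic and 0 maternal libraries were 1 in Foxn3 (a forkhead transcription factor), at chr12:99388375-99389090, and 1 in Ctnnd2 (delta-catenin), at chr15:30221977-30222265. Foxn3 also held deep regions called maternal. They were chr12:99333073-99333552, in 0 embryonic and 6 maternal libraries, and chr12:99330962-99331344, in 1 and 6.

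Some genes had deep peaks in both replicates of 1 stage and no deep peak in any other stage. Without models lacking a curated symbol, there were 13 such genes for GV oocytes, 3 for MII oocytes and 2 for zygotes. There were 11 in 2-cell embryos, 4 in 8-cell embryos and 6 in blastocysts. The same was not counted for near-end peaks or for all genes, so these numbers have no background and were not tested. Skint6, of an immunoglobulin-superfamily group known from skin and thymus, had 11 and 4 deep peaks in 2-cell embryos. The adjacent regions chr4:112927473-112928369 and chr4:112926343-112926980 were 14.6-fold to 18.4-fold and 10.9-fold to 34.5-fold enriched. Dner, a Notch-related transmembrane protein, had 3 and 2 in 2-cell embryos, with 16.0-fold and 35.8-fold enrichment at chr1:84545210-84545667. Cdk14, a cyclin-dependent kinase, had 3 and 5 there, and its region chr5:5350300-5350706 was 5.20-fold and 8.29-fold enriched. Fmnl2, a formin that builds actin filaments, had 4 and 7 deep peaks in blastocysts and also 3 and 2 near-end peaks, again in blastocysts only.

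The deep region with the best rank in all 12 libraries lay in Fam189a1, at chr7:64871771-64872943, with 4.98-fold to 17.7-fold enrichment. It overlies Nsmce3, a gene for a subunit of the SMC5-SMC6 complex that lies inside Fam189a1, and 12 of the 16 deep peaks of Fam189a1 were of this kind. The regions next in rank without a further gene were those of Kmt2c and Ncoa2 and that of Sgms1 (sphingomyelin synthase), at chr19:32159582-32160442 and 4.63-fold to 9.35-fold. Etl4, also known as Skt, had 38 deep peaks in 21 regions over 11 libraries, as many as Zfp993, yet its region in the most libraries was found in 5. Recurrence and number of regions in a gene thus differed between genes, with Kmt2c at 9 regions in 60 peaks and Etl4 at 21 regions in 38.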

How the data were processed

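RNA bound by an m6A antibody was sequenced for 6 stages with 2 replicates each. The submitters' processing notes name MACS2 2.1.2, HISAT2 2.1.0, cutadapt 1.8.1, FastQC 0.11.8, bedtools 2.28.0, deepTools 3.2.0 and SAMtools 1.9, and the build mm10 (no settings: not given in the sources used here). Deposited peak names show calling per library against the input of its own stage and replicate, with no pooling. Each deposited line gives a score, which is about 10 times the −log10 q-value, a fold enrichment (a ratio) and −log10 p-values and −log10 q-values made by the authors. The lowest deposited −log10 q-value was 1.30. These values served to rank, filter and describe peaks. No read counts are given, so depth and the floor it sets are unknown.

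Lines with the same interval (143579 in all) were collapsed to 113764 peaks. Gene bodies came from a RefSeq table of GRCm38.p6 without exons or strand (49943 genes, 21887 protein-coding). Zones are unions of bases, and a base deep in a long gene counts as deep even where it is near the end of another. Of the deep peaks, 19 lay in more than 1 long gene. Strand and start windows came from RefSeq promoter sequences of the same build. Values per library were compared by exact permutation tests: 6 against 6 libraries (smallest p 0.00216), 4 against 8 (0.00404), or sign flips of 6 stage means (0.0312). Merged regions found in 5 to 7 libraries were tested by Fisher's exact test with Benjamini-Hochberg adjustment at 0.05. The work used Python 3.11.15, numpy 2.4.6, pandas 2.3.3, scipy 1.17.1 and matplotlib 3.10.9, and the tests were tested on simulated data. Alternatives concerned the score, both limits of the rule, nested genes, list length, single lines, merging, the units of the tests and the leaving out of single libraries.

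The members and the 8 gene lists were chosen with earlier results of these data known. Genes are named by a rule: the 6 with the most deep regions, the 6 with deep peaks in the most libraries, the 6 per phase with the largest difference in libraries, 2 per list, the 6 regions in the most libraries, and 4 with deep peaks in a single stage; ties went to the better-ranked peaks and models without a curated symbol were skipped. Foxn3, Ctnnd2, Mbd5 and the marker genes stand outside it, and all but the markers were named after their values were seen. Pairing of samples by replicate number is not stated in the labels. In 0 of 15 pairs of stages did deviations from stage means correlate above 0.1 (r −0.130 to 0.0569). Samples can be paired without such a correlation, so these values cannot decide whether they were.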

Additional observations from a re-analysis of the deposited data

How the results depend on the processing

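The lower density deep inside, with its log2 ratio between −3.16 and −1.88, the fall in number (−405 to −119 peaks) and in share between phases (−4.05 to −1.14 points) and after the 2-cell stage (−5.17 to −1.34 points), the share in a further gene (8.41 to 9.46 points) and the link with near-end peaks (at least 14.8 points) kept their direction under every alternative run for them. All kept their side of the threshold, except that with whole stages permuted the number (−293) and the share (−2.67) had an exact permutation p of 0.1, the smallest that design allows. The ratio between phases stayed between 0.00 and 0.36 in log2 with exact permutation p of 0.273 or more. With 12 libraries as units, which treats replicates as independent, the fold difference of 0.679 had an exact sign-flip permutation p, adjusted, of 0.0117. Replicate recovery turned to −1.41 points (exact permutation p = 0.625) when only peaks in no other gene were kept, and the cause was not tested. The 592 genes became 1219 with genes of at least 100000 bp and 162 with at least 500000 bp, which changes the genes counted. Regions called embryonic numbered 5 with a score of at least 100, and regions called maternal 101 with equal list lengths. For these runs and those that leave out 1 library, numbers tested and shares over all regions are not given. Such counts are therefore no result about deep regions. Leaving out 1 library gave 15 to 31 embryonic and 165 to 273 maternal calls, over a changed set of tested regions. It gave −326 to −273 deep peaks and −3.02 to −2.43 points of share. With a score of at least 100, Dst and Kif16b turned from 1 more embryonic library to −1. The differences of Faf1, Arl15 and Lrp1b shrank from 5, 5 and 4 to 3, 2 and 2. Leaving out a library could not be run for recovery, which needs both replicates.

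The replicate number was also used as a block, although the labels do not state that it pairs samples. The number (−293, exact permutation p = 0.01), the share (−2.67, exact permutation p = 0.005) and the ratio (0.20, exact permutation p = 0.565) were then on the same side as without it. So was the later split (−2.97, exact permutation p = 0.00889). The deep regions called were again 15 embryonic and 165 maternal, and the shares over all regions in that run are not given.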

Other observations

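A peak is a position in a list, and with depth unknown a missing peak is not an absence of methylation. Gene bodies without exons leave spliced and unspliced RNA unseparated. The 1 microRNA hairpin under a deep peak was Mir703, inside Cfap299, at chr5:98475512-98475725 in both blastocyst libraries and no other.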
